A study of Mus musculus with 18 samples.

Results

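The comparison described here sets dopamine neurons of the ventral tegmental area (VTA) against dopamine neurons of the substantia nigra (SN) after 2 days of MPTP. It uses the 3 arrays titled as VTA and the 3 titled as SN from mice treated for 2 days, chosen by their titles, which makes 6 of the 18 arrays in the series. The comparison covered the 18193 genes that have a probe set to which the array's annotation gives 1 gene symbol. The mice were adults of the C57Bl/6 strain and all carried the hTH-GFP transgene, a green fluorescent reporter under human tyrosine hydroxylase sequences. Both groups received MPTP at 4 mg/kg over 2 days, after single housing for 9 weeks, and tissue was taken 7 days after dosing ended. The other arrays, 3 per region, came from mice given saline for 10 days or MPTP for 10 days, and serve below to show where the 2 day difference stood apart. The sample descriptions call the saline mice untreated, whereas the treatment protocol names saline for them. The labels call the arrays of a group biological replicates, but they do not give the number of mice behind an array, whether neurons of both regions were taken from 1 animal, or how dopamine neurons were recognised before laser capture.

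Midbrain dopamine neurons make dopamine with tyrosine hydroxylase and DOPA decarboxylase, load it into vesicles through the vesicular monoamine transporter and take it back up through the dopamine transporter. SN neurons project mainly to the dorsal striatum and are the ones lost in Parkinson disease, while the neighbouring VTA neurons project mainly to the ventral striatum and cortex and are less vulnerable. MPTP is converted in glia to a toxic ion that enters dopamine neurons through the dopamine transporter and blocks mitochondrial complex I. Whether VTA neurons respond to the toxin differently from SN neurons is the question the series title names.

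The deposited values are log2 signals from which the median of each probe set over the 18 arrays had been removed. A value of 0.5 therefore means that a gene lay 0.5 log2 units above its own median in the series, and levels cannot be set against each other between genes. For the same reason the labelled cell type could be checked only as a difference between arrays, and detection of a marker cannot be shown. One array stood apart. The spread of all genes around 0 (median absolute deviation, scaled to an SD) was 0.399 on VTA array 1, the widest of the 18, against 0.182 to 0.256 on the other 5 arrays compared here. Its correlation with the other VTA arrays, over genes, was -0.067 and -0.06, but that of SN array 1 with the other SN arrays was as low, at -0.049 and -0.019. It is thus the spread that set VTA array 1 apart, and results whose sign it turned are given without it too.

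No gene differed between VTA and SN neurons after adjustment. Of 18193 genes, 0 passed an adjusted p of 0.05 (0% called; limma's moderated test, Benjamini-Hochberg), and the smallest adjusted p was 0.9999. At an unadjusted p under 0.05 there were 508 genes (2.79%), 315 higher in VTA (1.73%) and 193 lower (1.06%), where 910 would be due to chance. The 3 VTA arrays lay entirely above or below the 3 SN arrays for 1554 genes (8.54%), 908 above (4.99%) and 646 below (3.55%). With 3 arrays per region such separation is common without any difference between the regions, so it is no evidence by itself. Differences were small for most genes, with a median of 0.02 over all genes and a median standard error (SE) of 0.191. Since a 95% interval reaches 2.12 SE to each side, a difference near 0 for a single gene leaves room for moderate changes in both directions.

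Large differences were fewer without VTA array 1. A difference of more than 1 log2 unit, a change of over 2-fold, was found for 44 genes with all 6 arrays and for 12 genes without that array. The same count was 68 genes between the regions in saline and 11 genes after 10 days of MPTP, from other arrays. The plot of differences against p shows the named genes spread along the upper edge of the cloud.

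**Figure D1:**
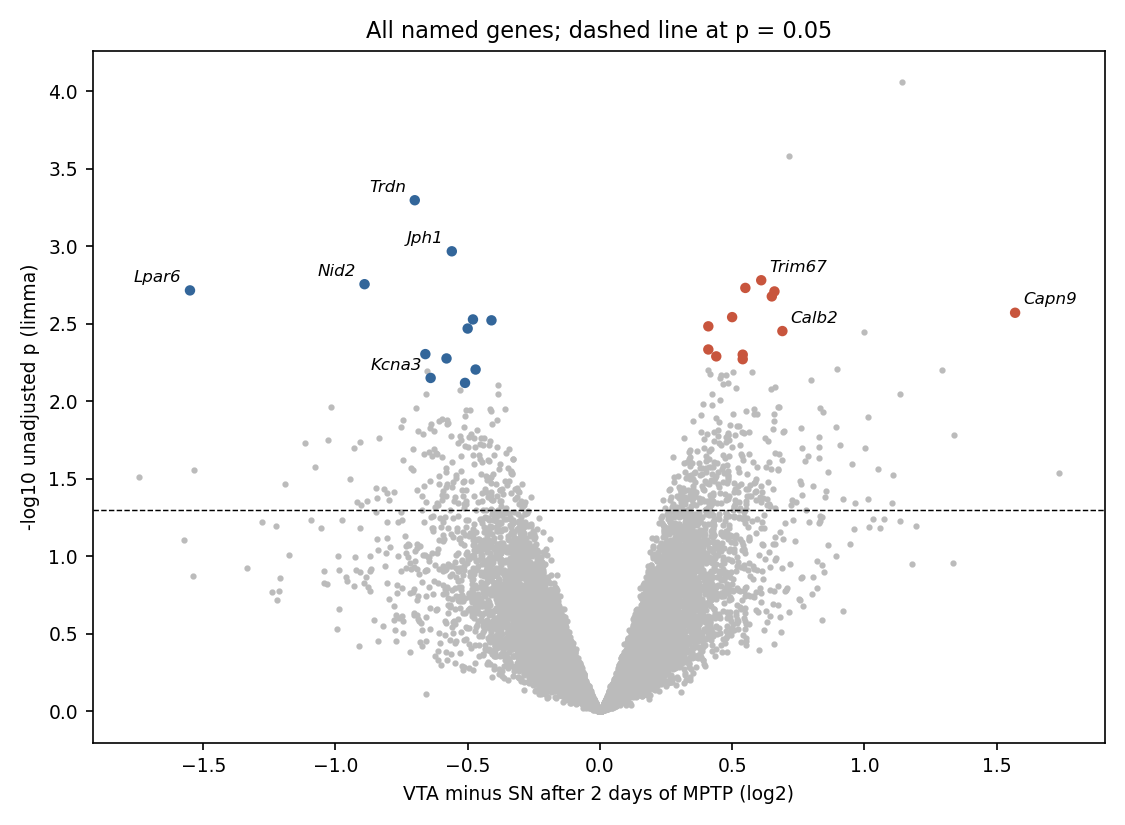
Each point is 1 of 18193 genes; the horizontal axis is the log2 difference VTA minus SN after 2 days of MPTP and the vertical axis is -log10 of the unadjusted limma p. Coloured points are the 12 genes named as higher and the 12 named as lower in VTA, and none of the 18193 genes passed the adjusted p of 0.05; the gene of largest difference among those named is Capn9 at 1.57.

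Calb2 and Tacr3, both used as markers of VTA rather than SN dopamine neurons, lay higher in VTA, Tacr3 with overlap. Most of their list did not: with all 6 arrays, 18 of the 25 measured VTA-enriched genes lay lower in VTA, as given below. Calb2, which encodes the calcium-binding protein calretinin, read -0.38, -0.59 and -0.27 on the SN arrays and 0.85, 0.10 and -0.12 on the VTA arrays. All VTA arrays lay above all SN arrays, with VTA array 1 far above the others. The difference was 0.69 ± 0.20 (SE, n = 3 per region), a 1.61-fold change, with an adjusted p of 0.9999 from limma, and it was 0.40 without VTA array 1. The region difference of Calb2 was 0.71 in saline and 0.71 after 10 days of MPTP. Calb2 was 1 of 2 genes, of 18193, whose arrays did not overlap between regions in the same direction in all 3 treatments. The other, named after its values were seen, was Atp8b3, at 0.30, 0.29 and 0.34 after 2 days, in saline and after 10 days. Without overlap in either direction were 8.54%, 7.31% and 9.00% of all genes in these treatments. Whether 2 such genes are more than coincidence would give was not tested.

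Tacr3 encodes the neurokinin 3 receptor, through which tachykinin peptides excite dopamine neurons. It read -0.54, -1.01 and -0.87 on the SN arrays and 0.05, 0.23 and -0.78 on the VTA arrays. VTA arrays 1 and 2 lay above every SN array, whereas VTA array 3 lay among them. The difference was 0.64 ± 0.36 (SE), or 1.56-fold, with an interval of -0.12 to 1.40. It was 1.23 in saline and 1.41 after 10 days, and neither change of the difference passed (-0.59 ± 0.51 against saline, adjusted p = 0.9999 by limma).

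Among the 25 measured VTA-enriched genes Tacr3 had the largest region difference in saline and after 10 days, so the stretch just upstream of its transcription start is shown. The 250 bases before the start are those of RefSeq (GRCm38.p6, chr3:134828757-134829006, plus strand). Capitals mark the matches to the motifs searched.

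Tacr3: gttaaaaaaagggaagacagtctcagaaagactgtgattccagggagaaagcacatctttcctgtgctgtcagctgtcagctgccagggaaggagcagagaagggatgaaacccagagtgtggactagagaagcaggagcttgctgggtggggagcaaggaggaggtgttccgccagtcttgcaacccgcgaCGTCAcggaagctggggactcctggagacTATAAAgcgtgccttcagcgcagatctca

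The search took 4 motifs on both strands: TATAAA of the core promoter, a half-site of the cAMP response element (TGACG), the core bound by OTX and PITX factors (TAATCC) and an extended half-site of NR4A receptors (AAGGTCA). Counted from the start, the core promoter motif began at -29 and the cAMP half-site, in reverse as CGTCA, at -58. Of 32851 upstream windows of the same length, 12.4% held TATAAA and 17.8% held TGACG or its reverse. TAATCC (6.25% of windows) and AAGGTCA (4.08%) were not in the Tacr3 window. These matches describe letters and were not tested as binding sites.

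Otx2, a homeobox factor that marks part of the VTA, lay near 0 between the regions. It read 0.36, -0.47 and -0.17 in SN and -0.63, -0.07 and 0.04 in VTA, so the regions overlapped. Its difference was -0.12 ± 0.32 (SE) after 2 days, 0.08 without VTA array 1, and 0.80 ± 0.32 in saline. The change of the difference, -0.92 ± 0.45, had an unadjusted p of 0.0573 and an adjusted p of 0.9999 by limma. Calb1, which encodes calbindin, also overlapped, with 0.06, 0.45 and 0.20 in SN, -0.24, 0.17 and 0.12 in VTA and a difference of -0.22 ± 0.22 (-0.09 without VTA array 1).

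Across the VTA-enriched list, 7 of 25 measured genes had a difference above 0, beside 53.7% of all genes, and the median was -0.15. In saline 19 of the 25 were above 0, beside 50.0% of all genes, with a median of 0.34. The peptide genes Adcyap1 (PACAP) and Vip, chosen here after their values were seen, were among its members: Adcyap1 was -0.21 after 2 days (-0.46 without VTA array 1) and 1.09 in saline, and Vip was -0.09 after 2 days (0.47 without it) and 1.07 in saline. The sign of the list rested on VTA array 1. Without it, 19 of 25 genes were above 0 and the median was 0.08.

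**Figure D2:**
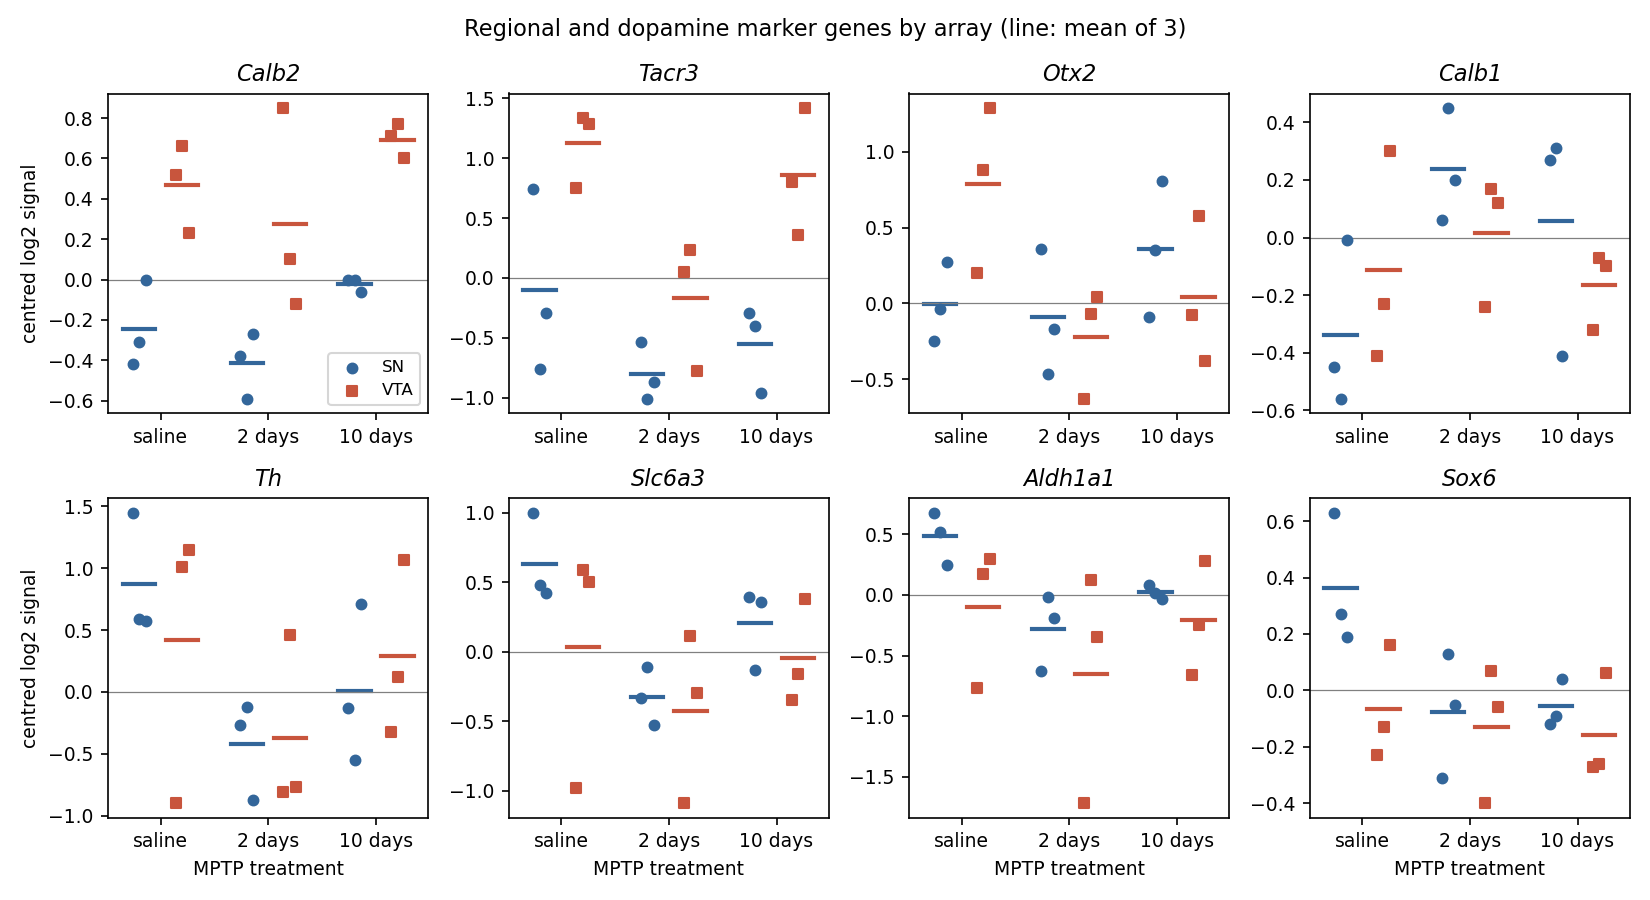
Centred log2 signal of 8 marker genes on each of the 18 arrays, by treatment; circles are SN, squares are VTA and bars are the means of 3 arrays. After 2 days the Calb2 arrays of the regions do not overlap, while Th, Slc6a3, Aldh1a1 and Sox6 overlap and the lowest Aldh1a1 value, -1.72, is on VTA array 1.

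The 4 genes of dopamine synthesis and transport overlapped between the regions. Th, which encodes tyrosine hydroxylase, read -0.27, -0.12 and -0.87 in SN and -0.81, 0.46 and -0.77 in VTA, a difference of 0.05 ± 0.52 (SE). Slc6a3, the dopamine transporter, read -0.33, -0.11 and -0.53 in SN and -1.09, 0.11 and -0.30 in VTA, a difference of -0.10 ± 0.37. In both genes VTA array 2 was the highest of the 6 and VTA array 1 was lower than VTA array 3. Slc18a2, the vesicular monoamine transporter, had -0.52, -0.10 and -0.68 in SN and -1.59, 0.14 and -0.63 in VTA, a difference of -0.26 ± 0.43. Ddc, which encodes DOPA decarboxylase, had -0.80, -0.26 and -0.44 in SN and -0.94, -0.01 and -0.43 in VTA, a difference of 0.04 ± 0.31. Without VTA array 1 all 4 differences were above 0, at 0.26 for Th, 0.23 for Slc6a3, 0.19 for Slc18a2 and 0.28 for Ddc. The 95% interval of the Th difference ran from -1.06 to 1.15 and that of Slc6a3 from -0.88 to 0.68. With 3 arrays per region, differences of about 2-fold in Th, and somewhat smaller ones in Slc6a3, were thus not excluded.

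Of 25 measured dopamine identity genes, 14 were above 0, beside 53.7% of all genes, and 0 were without overlap, beside 8.54% of all genes. Their median difference was 0.04. The mean of these genes was -0.49, -0.14 and -0.40 on the SN arrays and -0.81, 0.09 and -0.30 on the VTA arrays. VTA array 1 held the lowest mean of the 6 and VTA array 2 the highest. Without VTA array 1, 20 of 25 were above 0 and the median was 0.23, whereas it was -0.29 in saline, where 8 of 25 were above 0. After 10 days the median was 0.04 with 13 of 25 above 0. In captured tissue, fewer cells of a type and less RNA per cell cannot be told apart. The transcription factor Nr4a2, needed to make and maintain dopamine neurons, was named after its values were seen. It was 0.23 higher in VTA after 2 days (SE 0.14), 0.17 in saline and 0.24 after 10 days. It passed in none of them.

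SN-enriched genes lay closer to 0 between the regions than in saline, as they also did after 10 days. No single gene passed in the contrast with saline. Aldh1a1, which encodes the retinaldehyde dehydrogenase of ventral SN neurons, read -0.63, -0.02 and -0.19 in SN and -1.72, 0.12 and -0.35 in VTA. The regions overlapped and VTA array 1 was by far the lowest. The difference was -0.37 ± 0.38 (SE), and 0.17 without that array. Sox6, a transcription factor of SN neurons, had -0.31, 0.13 and -0.05 in SN and -0.40, 0.07 and -0.06 in VTA, a difference of -0.05 ± 0.17 (0.08 without VTA array 1) where saline had -0.43. Kcnj6, the GIRK2 potassium channel subunit, differed by -0.10 ± 0.23 (0.02 without it), and Lmo3, a transcriptional cofactor of SN neurons, by 0.10 ± 0.24.

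Over the 20 SN-enriched genes, 5 were above 0 and the median was -0.10. It was -0.43 with 3 above 0 in saline and -0.07 with 4 above 0 after 10 days. After 2 days VTA array 1 again set the sign: without it 17 of 20 were above 0 and the median was 0.12. Of the 20 genes 1 was without overlap, beside 8.54% of all genes in either direction and 3.55% lower. It was Atp2a3, which encodes a calcium pump of the endoplasmic reticulum and was chosen after its values were seen (-0.50 after 2 days, -0.94 in saline, 0.02 after 10 days). Grin2c, an NMDA receptor subunit also chosen after its values were seen, had -0.70 in saline and 0.07 after 2 days (-0.06 without VTA array 1). The change of its region difference was 0.78 ± 0.22, with an unadjusted p of 0.00246 and an adjusted p of 0.9999 by limma.

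The 24 genes described next are the 12 of smallest p in each direction whose arrays did not overlap, none of which passed. Calb2, given above, is 1 of the 12 higher genes. They were picked for this very difference, so their separation in the heat map is how they were chosen and not a result. Their adjusted p was 0.9999 throughout (limma, Benjamini-Hochberg).

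Higher in VTA with the largest difference was Capn9, a calpain protease. It read 0.08, -0.17 and 0.17 in SN and 2.92, 1.62 and 0.24 in VTA. VTA array 3 lay just above the SN arrays, so that the difference of 1.57 ± 0.44 (SE), or 2.96-fold, came from VTA arrays 1 and 2, and it was 0.90 without VTA array 1. A pair of transporters was among these genes. Slc6a7, the brain proline transporter, read -0.20, 0.02 and -0.10 in SN and 0.71, 0.29 and 0.37 in VTA, a difference of 0.55 ± 0.15. Slc25a42, the mitochondrial coenzyme A carrier, read 0.26, -0.08 and -0.32 in SN and 0.67, 0.30 and 0.50 in VTA, a difference of 0.54 ± 0.17. The proline transporter lay higher in VTA in saline (0.19) and after 10 days (0.40) as well.

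Trim67, a neuronal ubiquitin ligase of the tripartite motif family, had -0.46, -0.46 and -0.17 in SN and 0.58, 0.18 and -0.03 in VTA, a difference of 0.61 ± 0.16 (SE). Ostm1, needed for the chloride transporter of lysosomes, was among the most even, with -0.16, -0.03 and -0.20 in SN and 0.30, 0.29 and 0.23 in VTA and a difference of 0.41 ± 0.12. In saline Ostm1 lay the other way, at -0.32, again without overlap. The remaining members, Spdye4a, Sspo (SCO-spondin, secreted by the subcommissural organ), Gpatch1, Mfsd4b2, Las1l (processing of ribosomal RNA) and Trex2 (a DNA exonuclease), had differences from 0.41 to 0.66. These and Calb2, the 12 higher genes, all stayed above 0 when VTA array 1 was left out, which their choice without overlap fixed in advance.

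Lower in VTA with the smallest p was Trdn, which encodes triadin, a protein of the calcium release complex best known from muscle. It read 0.43, 1.15 and 0.48 in SN and -0.06, -0.08 and 0.10 in VTA. SN array 2 was the highest, and the VTA arrays sat close together below all SN arrays. The difference was -0.70 ± 0.16 (SE, unadjusted p = 0.000506), a 1.62-fold change that stayed at -0.68 without VTA array 1. Its 6 probe sets all had the same sign, from -1.43 to -0.05. Jph1, junctophilin 1, which ties the endoplasmic reticulum to the plasma membrane, read 0.21, 0.21 and 0.35 in SN and -0.57, -0.09 and -0.24 in VTA. Its difference was -0.56 ± 0.14, and it was -0.45 in saline and -0.11 after 10 days.

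Lpar6, a receptor for lysophosphatidic acid, had the largest difference among the 12 lower genes. It read 0.60, 0.24 and -0.08 in SN and -2.35, -0.41 and -1.12 in VTA, a difference of -1.55 ± 0.42 (SE), or 2.92-fold, and -1.02 without VTA array 1. The VTA values were widely spread, with VTA array 1 far below the others. Nid2, nidogen 2 of basement membranes, read 0.54, 0.10 and -0.03 in SN and -0.89, -0.27 and -0.90 in VTA, a difference of -0.89 ± 0.24. Kcna3, the voltage-gated potassium channel Kv1.3, read 0.53, 0.17 and 0.30 in SN and -0.71, -0.02 and -0.20 in VTA, a difference of -0.64 ± 0.21 beside 0.41 in saline. Nidogen 2 occurs around vessels and Kv1.3 also in microglia, and markers of both lay lower in VTA, as given below; their part in these differences was not tested.

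Orm1, an acute-phase plasma protein, was even within each region, with 0.18, 0.14 and 0.05 in SN and -0.36, -0.27 and -0.24 in VTA and a difference of -0.41 ± 0.12 (SE). Il25, an interleukin, had 0.34, 0.31 and 0.35 in SN and -0.73, -0.01 and 0.01 in VTA, so that VTA array 1 made up much of its difference of -0.58 (-0.34 without it). The other members, Nmrk1 (nicotinamide riboside kinase 1, of NAD synthesis), Pnmal1, Ptar1, Ago4 (an argonaute protein of small RNA silencing) and Palb2 (a partner of BRCA2 in DNA repair), had differences from -0.66 to -0.47. All of these 12 genes stayed below 0 when VTA array 1 was left out, which again follows from their choice without overlap.

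**Figure D3:**
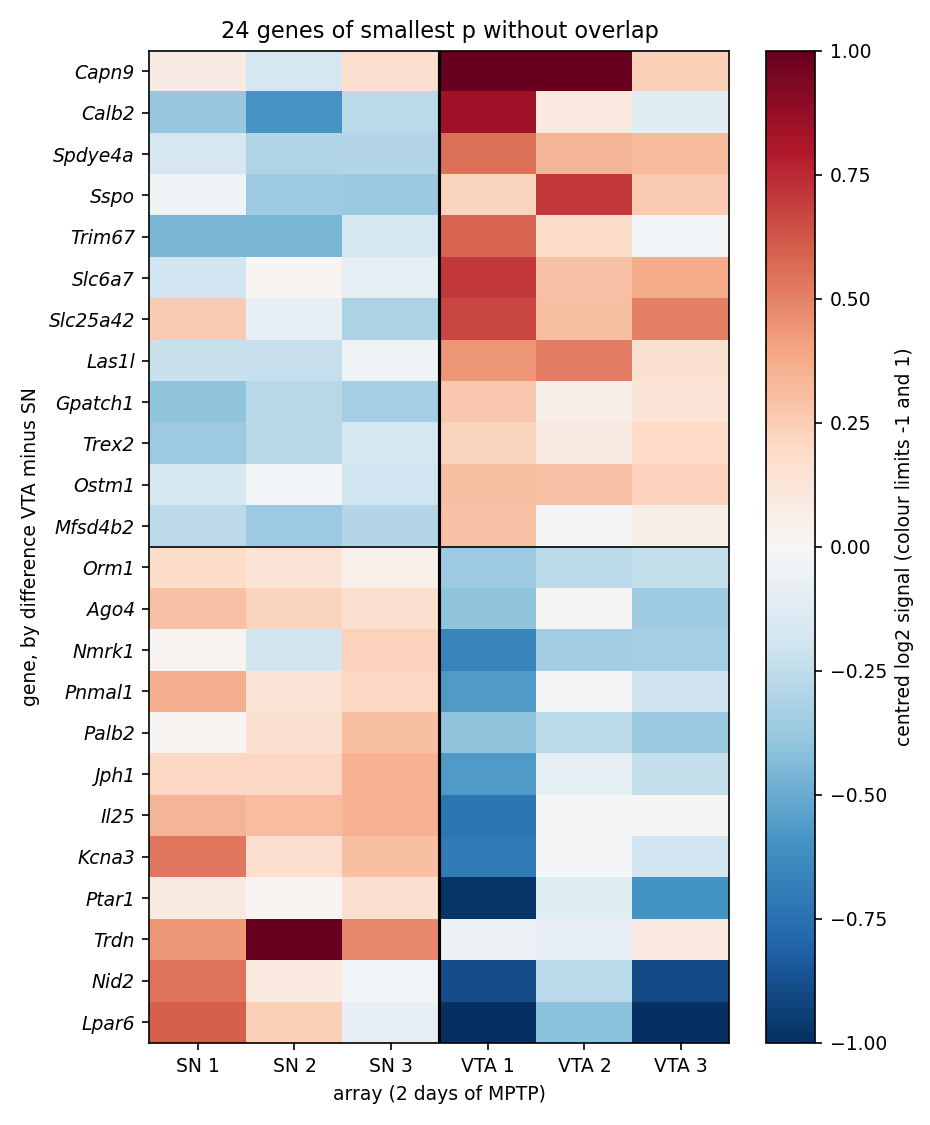
Centred log2 signal of the 12 genes named as higher (top) and the 12 named as lower (bottom) in VTA on the 6 arrays after 2 days of MPTP; colours stop at -1 and 1, and clone and predicted names were skipped. VTA array 1 holds the most extreme colours, such as 2.92 for Capn9 and -2.35 for Lpar6, and the separation of the regions is how the genes were picked.

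Markers of glia and vessels lay lower in VTA after 2 days. Of 16 measured astrocyte markers, 0 were above 0, beside 53.7% of all genes, and their median was -0.25. Slc1a3, the astrocyte glutamate transporter GLAST, read 0.42, 0.21 and 0.26 in SN and -0.61, 0.07 and 0.08 in VTA, a difference of -0.45 ± 0.17 (SE) that was -0.22 without VTA array 1. S100b, a calcium-binding protein of astrocytes, read 0.54, -0.08 and 0.20 in SN and -0.24, -0.34 and 0.00 in VTA, a difference of -0.41 ± 0.18 with overlap. In saline these differences were 0.16 and 0.25. The mean of the astrocyte markers was 0.17, 0.00 and 0.16 on the SN arrays and -0.34, -0.12 and 0.00 on the VTA arrays. The lowest SN array therefore equalled the highest VTA array to 2 decimals.

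Without VTA array 1 the astrocyte median was -0.16 and 2 of 16 were above 0, so the direction did not rest on that array alone. In saline the astrocyte median was 0.16 with 15 of 16 above 0, and after 10 days it was -0.01 with 6 of 16 above 0, beside 51.1% of all genes. Among the 16 astrocyte markers, 3 lay without overlap below SN, beside 3.55% of all genes, 0 lay above, and none passed the adjusted p.

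Microglial markers had a median of -0.22, with 4 of 16 above 0. P2ry12, a purine receptor of resting microglia, read 0.42, -0.01 and 0.01 in SN and -0.99, -0.33 and -0.39 in VTA, a difference of -0.71 ± 0.27 (SE) without overlap and of -0.50 without VTA array 1. Endothelial and pericyte markers had a median of -0.17 with 3 of 16 above 0, and oligodendrocyte markers one of -0.11 with 2 of 14 above 0. Mog, a myelin protein, read 0.09, -0.05 and -0.01 in SN and -0.95, -0.36 and -0.21 in VTA, a difference of -0.52 ± 0.23 that was -0.30 without VTA array 1. The list as a whole moved the other way: without that array the oligodendrocyte median was -0.21 with 0 of 14 above 0, and that of oligodendrocyte precursors moved from -0.07 to -0.21. The microglial and vascular medians lay closer to 0 without it, at -0.11 and -0.10.

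Markers of GABA neurons had a median of 0.10 with 8 of 15 above 0, and those of serotonin, cholinergic and other neurons one of 0.07 with 7 of 10 above 0. Both signs turned without VTA array 1, to -0.02 with 7 of 15 and to -0.11 with 3 of 10 above 0. The 3 measured erythrocyte genes, 2 globins and the haem enzyme gene Alas2, were all above 0 with a median of 0.24, opposite to saline (-0.28). Ependyma and choroid plexus markers had a median of 0.18 with 9 of 13 above 0, and 0.27 with 10 of 13 without VTA array 1. Ttr, the transthyretin of choroid plexus and the lowest of the list at -0.66, read 2.72, -2.28 and 2.34 in SN and -2.87, -1.66 and 5.33 in VTA. The Ttr values cover several log2 units within each region and have no common direction. No marker of another cell type passed, and the part of these cells in the neuronal differences was not tested.

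**Figure D4:**
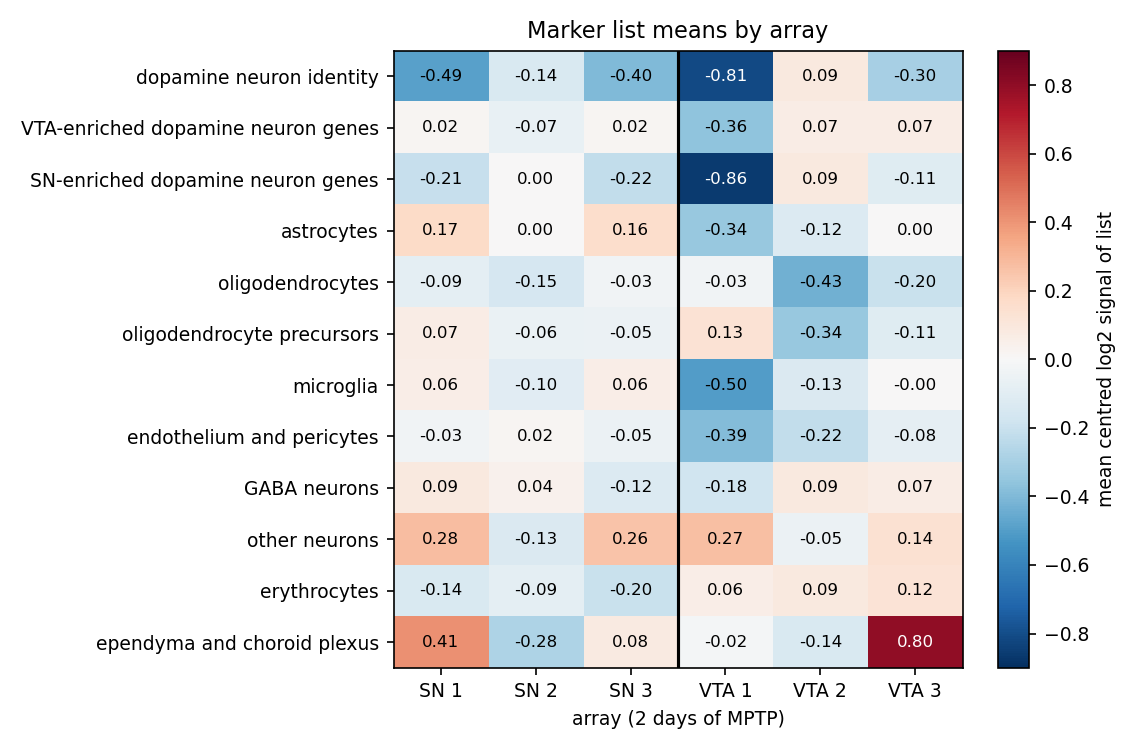
Mean centred log2 signal of each marker list (rows) on each of the 6 arrays after 2 days of MPTP (columns). Astrocyte means run from 0.00 to 0.17 in SN and from -0.34 to 0.00 in VTA, and VTA array 1 is lowest for both dopamine identity (-0.81) and microglia (-0.50).

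Mitochondrial and stress genes differed little between the regions at this time. Complex I, the target of the toxin, had a median of 0.02 over 37 measured genes with 19 above 0, and complexes II to V one of 0.02 over 38 genes with 21 above 0. In complexes II to V, 4 genes lay higher in VTA without overlap and 0 lower. These were Sdha of complex II (0.26), Uqcrc2 of complex III (0.15), Cox5b of complex IV (0.12) and Atp5c1 of complex V (0.20), named after their values were seen, and the share of all genes higher without overlap was 4.99%. The proteasome (0.00, 16 of 32 above 0), the unfolded protein response (0.00, 13 of 29) and heat shock chaperones (0.02, 14 of 23) were likewise balanced. So were lysosome and autophagy genes (0.00, 15 of 29). Familial Parkinson disease genes had a median of 0.10 with 9 of 14 above 0, which became -0.02 with 6 of 14 without VTA array 1.

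Antioxidant genes had a median of -0.03 with 12 of 32 above 0. Mt2, a metallothionein that astrocytes also express, read 0.67, 0.02 and -0.01 in SN and -0.91, -0.14 and 0.09 in VTA. The regions overlapped, and the difference of -0.55 ± 0.25 (SE) was -0.26 without VTA array 1. Apoptosis genes had a median of -0.04 with 12 of 30 above 0.

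Of the immediate early genes and the pacemaking channel genes, 1 member each had an unadjusted p under 0.05, a share near the 2.79% of all genes. Ier2, an immediate early gene, read -0.42, -0.49 and -0.06 in SN and 0.39, 0.09 and 0.01 in VTA, a difference of 0.49 ± 0.19 (SE) where its list had a median of -0.05 with 10 of 22 above 0. Cacna1h, a T-type calcium channel subunit, read -0.01, 0.09 and -0.25 in SN and 0.58, 0.53 and 0.24 in VTA, a difference of 0.51 ± 0.22. Both were without overlap, and other pacemaking channel genes were balanced around a median of 0.01 (13 of 23 above 0). Without VTA array 1 the immediate early genes had a median of 0.12 with 16 of 22 above 0.

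Of the remaining lists, neuropeptide genes had a median of -0.09 with 7 of 19 above 0, where saline had 0.39 with 15 of 19. After 10 days it was 0.16 with 15 of 19 above 0. Without VTA array 1 the 2 day median of the neuropeptide genes was 0.09 with 11 of 19 above 0. Cck, Gal, Vip, Grp and Adcyap1 are also on the VTA-enriched list, so these lists are not independent. Ribosomal protein genes had 4 of 29 above 0 and a median of -0.05, which became 0.02 with 19 of 29 above 0 without VTA array 1. Sc5d, a sterol desaturase of cholesterol synthesis, was lower in VTA (-0.33 ± 0.14, SE) without overlap. Bhlhe41, a repressor of the circadian clock, was lower by the unadjusted test (-0.48 ± 0.19) with overlap. Medians of the lists for synaptic vesicle release, axon guidance, neurotrophic factors, interferon and MHC class I genes, glutamate and GABA receptors, cholesterol synthesis, the clock and glucocorticoid-responsive genes lay between -0.10 and 0.04. Of these, axon guidance (-0.07) and neurotrophic factors (-0.02) turned without VTA array 1, both to 0.02.

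**Figure D5:**
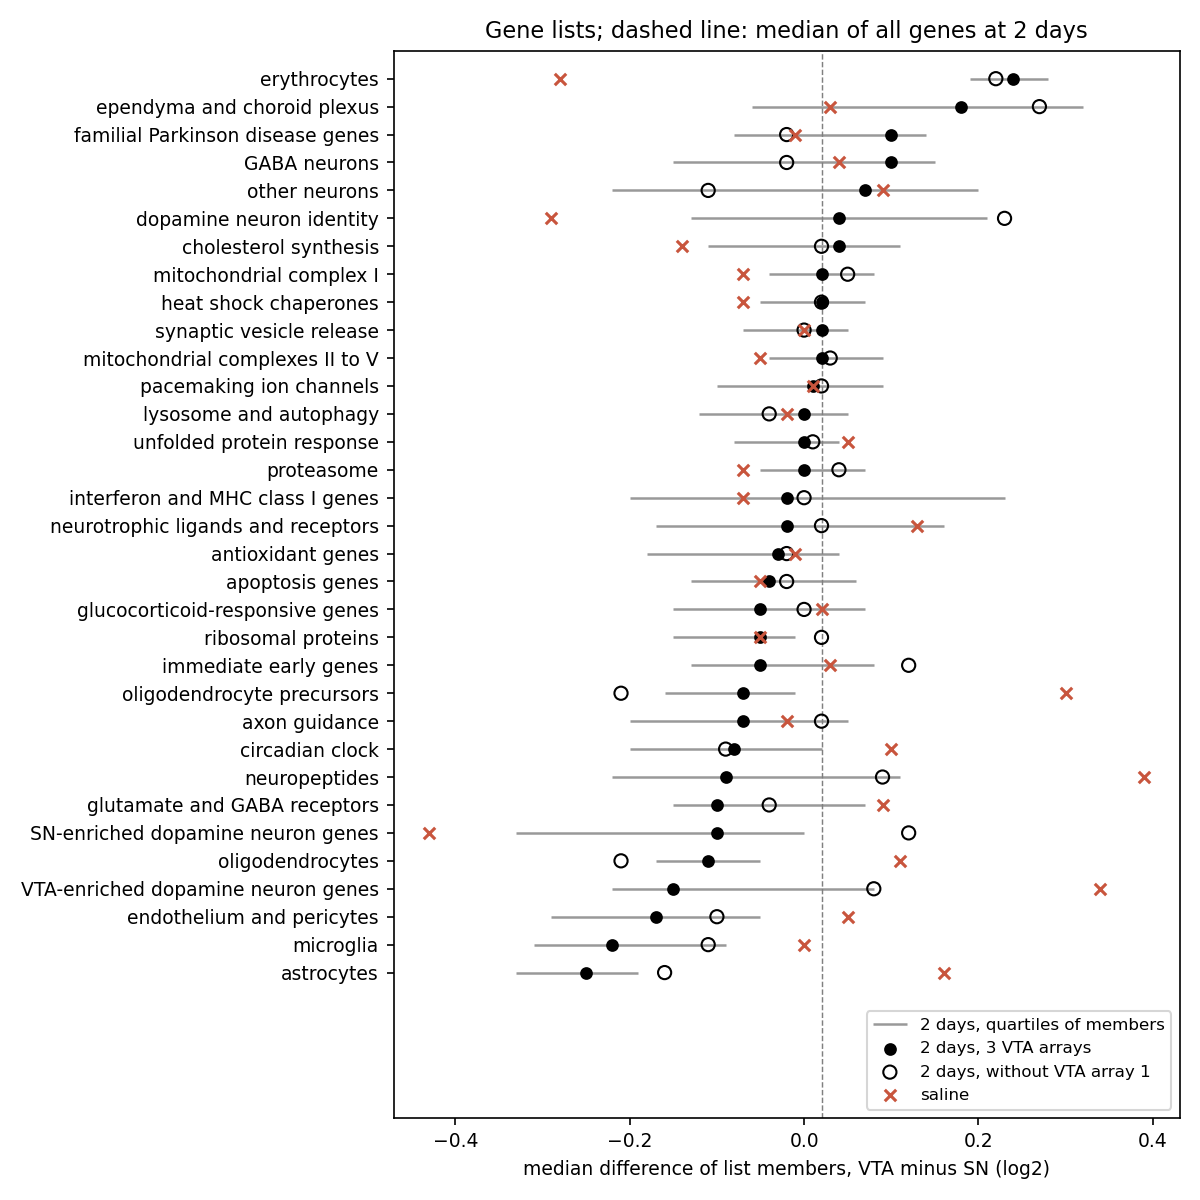
Median log2 difference VTA minus SN of the members of each of 33 gene lists; filled circles are 2 days of MPTP with quartile bars, open circles the same without VTA array 1, and crosses saline. Astrocytes are lowest at -0.25, and the VTA-enriched, SN-enriched and dopamine identity lists cross 0 or move well above it when VTA array 1 is left out.

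The region difference after 2 days was also set against the region differences of the other treatments, which use other arrays. Between 2 days and saline, 0 of 18193 genes had a region difference that changed (0% called), 601 had an unadjusted p under 0.05 (3.30%), and the smallest adjusted p was 0.701 by limma. Between 2 and 10 days the counts were 0 and 349 (1.92%), with a smallest adjusted p of 0.9999. Within saline and within 10 days, 0 genes passed between the regions, and 794 (4.36%) and 544 (2.99%) had an unadjusted p under 0.05. No gene passed between the regions in any of the 3 treatments.

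Gene by gene, the region differences had little in common across treatments. Pearson's r over the 18193 genes, which are not independent replicates and share the centring over all arrays, was 0.04 between 2 days and saline and 0.14 between 2 and 10 days. Without VTA array 1 of the 2 day group these were -0.029 and 0.038. Of the 1554 genes without overlap after 2 days, 54 were also without overlap in saline (7.31% of all genes were) in the same direction and 51 in the opposite one. After 10 days, when 9.00% of all genes were without overlap, 98 of the 1554 shared the direction and 42 opposed it. The VTA markers Calb2 and Tacr3 were above 0 in all 3 treatments, though Tacr3 overlapped between regions after 2 days. The median of their whole list was -0.15 after 2 days (0.08 without VTA array 1), 0.34 in saline and 0.02 after 10 days.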

How the data were processed

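RNA of laser-captured neurons was amplified, labelled with biotin and hybridised to Affymetrix mouse arrays, per the labels' protocols. The authors log2 transformed the signals and RMA normalised them in GeneSpring GX 10.0, per the series' design text. The deposited log2 values of 45101 probe sets have a median of 0 over the 18 arrays (within 5e-07), a centring that was checked here and that no source states. They hold no level, so no filter on dim probe sets was made, and precision is limited by the array number.

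In the array's annotation 34945 probe sets carry 1 gene symbol, 932 carry several and 9160 carry none. Controls (64) were left out. Probe sets of a gene were averaged, which gave 18193 genes. Of the named probe sets 99.42% had a gene identifier found in RefSeq's table (GRCm38.p6). A model of 6 group means over 18 arrays was fitted with limma 3.58.1 (lmFit and eBayes, two-sided) in R 4.3.3, with 12 residual degrees of freedom, and was tested on simulated data. Errors of differences are SE from this model, and p-values measure only the spread between these arrays. Figures were drawn with matplotlib 3.10.9.

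The rule for named genes took, per direction, the 12 genes that passed with the largest change, filled with those of smallest p without overlap. It added up to 2 genes per list and direction with an unadjusted p under 0.05, and always Th, Slc6a3, Slc18a2, Ddc, Otx2, Calb1, Sox6, Aldh1a1, Kcnj6, Tacr3, Calb2 and Lmo3. Clone and predicted names were skipped, and not every eligible gene is printed. Gene lists (33, with 688 of 767 genes measured), comparisons and rules were chosen with earlier results of these data known. Extra members named for a list were chosen after their values were seen. Alternatives were single probe sets, the probe set of largest SD, a fit of only the groups compared, median centring, repeated quantile normalisation, genes of above-median SD, array weights, leaving out the widest arrays or each replicate, and replicate blocks.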

Additional observations from a re-analysis of the deposited data

Results flagged for a closer look

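For 3 of the named genes the regions did not overlap after 2 days of MPTP and did not overlap in saline either, but in opposite directions. Over all genes this held for 51 of the 1554 without overlap after 2 days, beside 54 in the same direction. Ostm1 was 0.41 higher in VTA after 2 days and lay at -0.32 in saline (change of the difference 0.73 ± 0.17, SE; unadjusted p = 0.000476). Trdn was at -0.70 after 2 days and at 0.28 in saline (change -0.98 ± 0.23, SE; unadjusted p = 0.000545). Orm1 was at -0.41 after 2 days and at 0.11 in saline (change -0.52 ± 0.17, SE; unadjusted p = 0.00687). None of these changes passed after adjustment over 18193 genes (adjusted p = 0.9999 for each, limma). The 3 genes were named because of their difference after 2 days, and the change of the difference uses the same 2 day arrays.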

How the results depend on the processing

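All 16 alternatives gave 0 genes passing, with a smallest adjusted p of 0.0699 (repeated quantile normalisation). In the 14 that tested all 18193 genes, 227 to 1153 had an unadjusted p under 0.05. The lowest count came without VTA array 1 and the highest without VTA array 2. None of the 24 genes named by rank changed sign under any alternative, whereas 9 of the 46 named genes did. The 24 were chosen without overlap, so leaving out arrays could not change their sign. With quantile normalisation Slc6a3 became 0.12, Slc18a2 0.02 and Otx2 0.03. With array weights Slc6a3 became 0.06 and Otx2 0.21. Without the 2 arrays of widest spread Slc6a3 became 0.23, Slc18a2 0.19, Otx2 0.08, Sox6 0.08, Aldh1a1 0.17 and Kcnj6 0.02. With the probe set of largest SD Ddc became -0.03 and Sox6 0.11. Leaving out each array in turn gave Th ranging from -0.37 to 0.26, Slc6a3 from -0.37 to 0.23, Slc18a2 from -0.68 to 0.19 and Ddc from -0.18 to 0.28. The ranges were -0.31 to 0.11 for Otx2, -0.17 to 0.08 for Sox6, -0.75 to 0.17 for Aldh1a1, -0.26 to 0.02 for Kcnj6 and -0.11 to 0.25 for Lmo3. Beyond the arrays named, the cause was not tested.

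Deviations from the group means were correlated over genes between SN and VTA arrays of the same treatment. Pairs with the same replicate number correlated at 0.05 to 0.399 (7 of 9 pairs over 0.1), those with different numbers at -0.286 to 0.137. By this measure 17 of 18 arrays correlated best with their own number, a hint from the data and not the design. The deviations within a group cancel out, so these correlations are not independent of each other. A fit with the replicate number as a block gave 0 genes passing and 757 at an unadjusted p under 0.05 (smallest adjusted p 0.9522).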

Other observations

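The 2 genes of smallest p have predicted or clone names and were named after their values were seen. Gm41810 was 1.14 higher in VTA after 2 days of MPTP (SE 0.22, unadjusted p = 8.773e-05, adjusted p = 0.9999 by limma), 0.83 higher in saline and at -0.02 after 10 days. The clone 4921525D07Rik was 0.71 higher after 2 days (SE 0.15), with 0.14 in saline and 0.32 after 10 days.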
